A study of Homo sapiens with 6 samples.

Results

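Lengsin (LGSN), glutamine synthetase (GLUL), the liver-type glutaminase GLS2 and glutamate dehydrogenase (GLUD1) were examined in Caco-2 cells, a line from a human adenocarcinoma of the colon, after RNA interference against SDC1. SDC1 encodes syndecan-1, a heparan sulfate proteoglycan of epithelial surfaces. LGSN was taken because its signal rose most in these arrays, and the other 3 genes were taken by function, as true enzymes of glutamine and glutamate metabolism. A probe set counted as a member if the platform annotation gave it exactly 1 gene symbol and that symbol was one of the 4. The rule found 7 probe sets of 3 genes, among 41091 probe sets with 1 symbol that covered 19775 genes: 1 for LGSN, 4 for GLUL and 2 for GLUD1. GLS2 was not analysed here.

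The series holds 6 Affymetrix arrays of total RNA. In 3 of them the cells had been transfected with a negative control siRNA and in 3 with an siRNA against SDC1. Both groups are the same line and differ in the siRNA alone, as far as the labels say, and the sources used here do not give the time after transfection. The design text calls the replicates independent without naming separate cultures, and every p-value below covers the array-to-array spread alone, part or all of which could be technical. With bulk RNA, a change in the number of cells that carry a transcript and a change per cell cannot be told apart.

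Glutamine synthetase joins ammonia to glutamate to make glutamine, and glutaminases run the opposite way by hydrolysing glutamine to glutamate. Glutamate dehydrogenase and the transaminases then pass the carbon of glutamate to 2-oxoglutarate and the citric acid cycle. Intestinal epithelium is known as a large consumer of glutamine, which it uses as a fuel and as a nitrogen donor. Lengsin belongs to the glutamine synthetase superfamily by sequence, was described in the eye lens, and is not known to make glutamine.

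The stretches before the transcription starts of LGSN and GLUL are printed to set the member that rose beside its enzyme relative. They are RefSeq sequences on GRCh38.p14, the 250 bases before a start, written 5′ to 3′ along the gene with every CG pair in capitals. The LGSN window is chr6:63319984-63320233 on the minus strand. The GLUL window is chr1:182391791-182392040 on the minus strand, the farther upstream of 2 listed starts.
LGSN: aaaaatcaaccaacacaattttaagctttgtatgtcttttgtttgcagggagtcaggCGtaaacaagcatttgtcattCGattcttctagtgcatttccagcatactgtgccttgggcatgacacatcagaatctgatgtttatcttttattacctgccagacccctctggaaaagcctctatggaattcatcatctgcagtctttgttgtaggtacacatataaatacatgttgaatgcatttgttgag
GLUL: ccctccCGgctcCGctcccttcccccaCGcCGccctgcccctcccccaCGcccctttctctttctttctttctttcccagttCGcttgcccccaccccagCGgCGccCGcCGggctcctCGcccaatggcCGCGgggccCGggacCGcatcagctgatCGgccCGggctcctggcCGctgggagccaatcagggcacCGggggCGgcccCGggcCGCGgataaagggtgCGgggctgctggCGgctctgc
The LGSN window held 2 CG pairs, more than 14.7% of all 35116 windows of this length, and was 38.4% G or C, more than 10.1% of them. The GLUL window held 25 CG pairs and was 74.8% G or C, above 78.4% and 89.2% of windows. The median window held 11 CG pairs. The letters TATAAA, searched on both strands, occurred once in the LGSN window, beginning 30 bases before the start, and not in the GLUL window. They occurred in 10.7% of all windows. These are descriptions of letters, and no binding was measured.

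The deposited values were log2 signals centred so that each probe set has its 6-array median at 0. A value of 0 is therefore the middle of that probe set's own 6 values, differences between arrays are kept, and the levels of LGSN and GLUL cannot be set against each other. The centring also makes the 2 middle arrays mirror images around 0. A rough brightness class was read from the precision with which the numbers were stored. It placed the LGSN probe set at 4 to 8 on the log2 scale. Of the GLUL probe sets 2 were at 8 to 16, 1 at 4 to 8 and 1 below 4, and both GLUD1 probe sets were at 8 to 16. For each gene, the probe sets of its brightest class were averaged.

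LGSN was lower in every control array than in every SDC1 siRNA array. Its relative log2 signal was -0.61, -0.63 and -0.43 in control replicates 1, 2 and 3 and 0.55, 0.50 and 0.43 in SDC1 siRNA replicates 1, 2 and 3. The nearest arrays of the 2 groups, replicate 3 of each, were 0.86 apart, while the values within the control group spanned less than that. The control arrays averaged -0.56 ± 0.11 (SD, n = 3) and the SDC1 siRNA arrays 0.49 ± 0.06 (SD, n = 3). This is a difference of 1.05 ± 0.08 (log2, standard error of the limma fit), or 2.07-fold, with a 95% interval from 0.87 to 1.23. Because this rise is what chose LGSN, it is given as a description and no test is attached to it. The value rests on 1 probe set, 220393_at, so no other probe set of the gene bears on it.

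**Figure D1:**
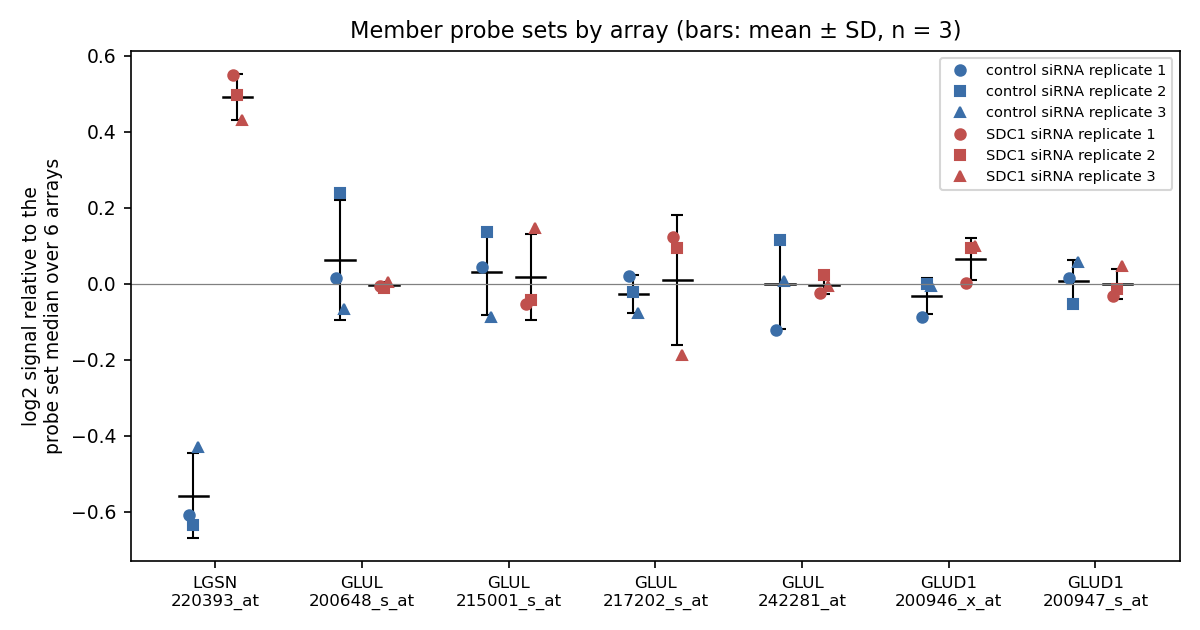
Relative log2 signal (vertical axis, log2 units around each probe set's median) of the 7 member probe sets in 3 control siRNA arrays (blue) and 3 SDC1 siRNA arrays (red), with bars for the mean and SD of each group. The LGSN groups lie 0.86 apart at their nearest arrays, and the GLUL and GLUD1 points lie around 0, between -0.19 and 0.24.

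Among all genes the next largest rises were smaller. GPRC5A, a retinoic acid-inducible orphan receptor, was 0.79 higher, SAR1B, a GTPase of chylomicron export, 0.74 higher, and the mitochondrial gene ND6 0.68 higher. LGSN was thus the 1 gene with a rise of at least 1 on the log2 scale. Counting falls too, 2 genes had an absolute difference of at least 1. The median absolute difference over all 19775 genes was 0.08. The spread of LGSN within groups was ordinary. Its pooled within-group SD of 0.09 was larger than that of 38.5% of genes, where the median gene had 0.11.

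**Figure D2:**
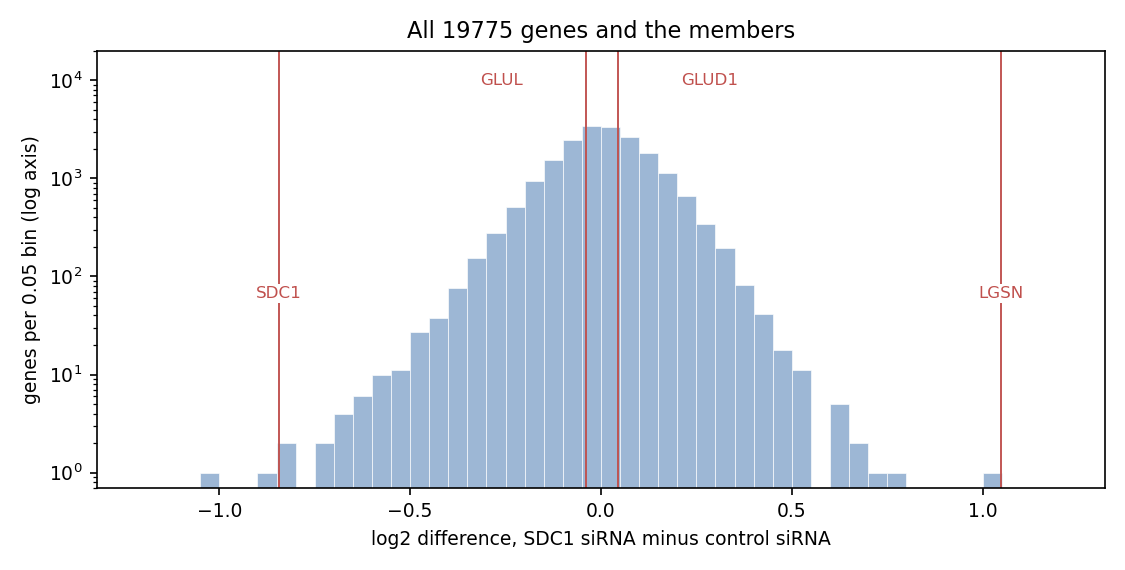
Number of genes (vertical log axis, per 0.05 bin) by log2 difference between SDC1 siRNA and control siRNA (horizontal axis), with red lines at the members and at SDC1. LGSN stands alone at 1.05, while GLUL at -0.04 and GLUD1 at 0.05 lie in the fullest bins.

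The siRNA target was lower in every SDC1 siRNA array. SDC1 fell by 0.84 on the log2 scale with a standard error of 0.08 (limma adjusted p = 0.0238 over all genes), and 5 genes in all passed an adjusted p of 0.05, or 0.0253% of those tested. That call did not survive the removal of any single array. Brightness class was read for 15 epithelial markers of Caco-2 cells. EPCAM, CDH1, KRT8, KRT18, KRT19 and CDX1 were in the brightest class, and VIL1, CDX2 and DPP4 at 4 to 8. FABP1, APOA1, KRT20, CDH17, SI and ANPEP were below 4, a class that does not show absence. The class did not single out epithelium. It was 4 or higher for 9 of these 15 markers and for 7 of 8 measured markers of fibroblasts and blood cells. None of the 15 passed the limma fit (lowest adjusted p = 0.523), and 0 were at an unadjusted p under 0.05. Of 8 measured markers of fibroblasts and blood cells 0 passed. Of these 8 markers 3 were at an unadjusted p under 0.05 (37.5%, beside 10.6% of all genes) and groups did not overlap in 4 (50%, beside 16.7%), with differences from -0.62 (LUM, lumican) to 0.22 (CD3E, a T cell receptor subunit) and a median of 0.09. Their part in the LGSN value was not tested.

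GLUL, which encodes the glutamine synthetase of human cells, showed no change past the threshold. Averaged over its 2 brightest probe sets, the relative log2 signal was 0.03, 0.19 and -0.08 in control replicates 1, 2 and 3 and -0.03, -0.03 and 0.08 in SDC1 siRNA replicates 1, 2 and 3. The groups overlapped, and control replicate 2 was the highest of the 6 arrays. The control arrays averaged 0.05 ± 0.13 (SD, n = 3) and the SDC1 siRNA arrays 0.01 ± 0.06 (SD, n = 3). The groups differed by -0.04 ± 0.08 (log2, standard error), with an adjusted p = 0.915 in the limma fit over all genes. Its 95% interval ran from -0.23 to 0.15, so the data allow a fall of up to 1.18-fold and a rise of up to 1.11-fold. Without control replicate 2 the difference turned to 0.03, again short of the threshold (adjusted p = 0.921).

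The 4 GLUL probe sets were alike in showing no separation of the groups. The bright set 200648_s_at read 0.01, 0.24 and -0.07 in the control arrays and -0.01, -0.01 and 0.01 in the SDC1 siRNA arrays. Here 1 control array alone stood high, and the 3 SDC1 siRNA arrays lay within 0.02 of each other. The other bright set, 215001_s_at, read 0.04, 0.14 and -0.09 against -0.05, -0.04 and 0.15. Differences between the groups were -0.07 and -0.01 in these sets, 0.04 in 217202_s_at and -0.0027 in the dim 242281_at. Tested singly, the lowest adjusted p of the 4 was 0.895 (limma, over 54613 probe sets).

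GLUD1, the mitochondrial enzyme that turns glutamate into 2-oxoglutarate and ammonia, also stayed short of the threshold. Its relative log2 signal was -0.04, -0.03 and 0.03 in control replicates 1, 2 and 3 and -0.01, 0.04 and 0.07 in SDC1 siRNA replicates 1, 2 and 3. The means were -0.01 ± 0.03 (SD, n = 3) and 0.03 ± 0.04 (SD, n = 3), and the groups overlapped. The difference of 0.05 ± 0.07 (log2, standard error) had an adjusted p = 0.857 in the limma fit and a 95% interval from -0.10 to 0.19. A rise of up to 1.14-fold and a fall of up to 1.08-fold remain within it. GLUD1 was among the steadiest genes on the arrays, with a pooled within-group SD of 0.04 that exceeded that of 4.54% of genes.

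Its 2 probe sets differed. In 200946_x_at, of a type whose probes can match related sequences, the controls read -0.09, -0.0021 and -0.01 and the SDC1 siRNA arrays 0.0021, 0.09 and 0.10. These groups just separated, by 0.0041, and the difference was 0.10 ± 0.08 (adjusted p = 0.788 singly, limma). In 200947_s_at the controls read 0.02, -0.05 and 0.06 and the SDC1 siRNA arrays -0.03, -0.02 and 0.04, with a difference of -0.01. Groups thus did not overlap in 1 of the 6 GLUL and GLUD1 probe sets, beside 14.5% of all probe sets.

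**Figure D3:**
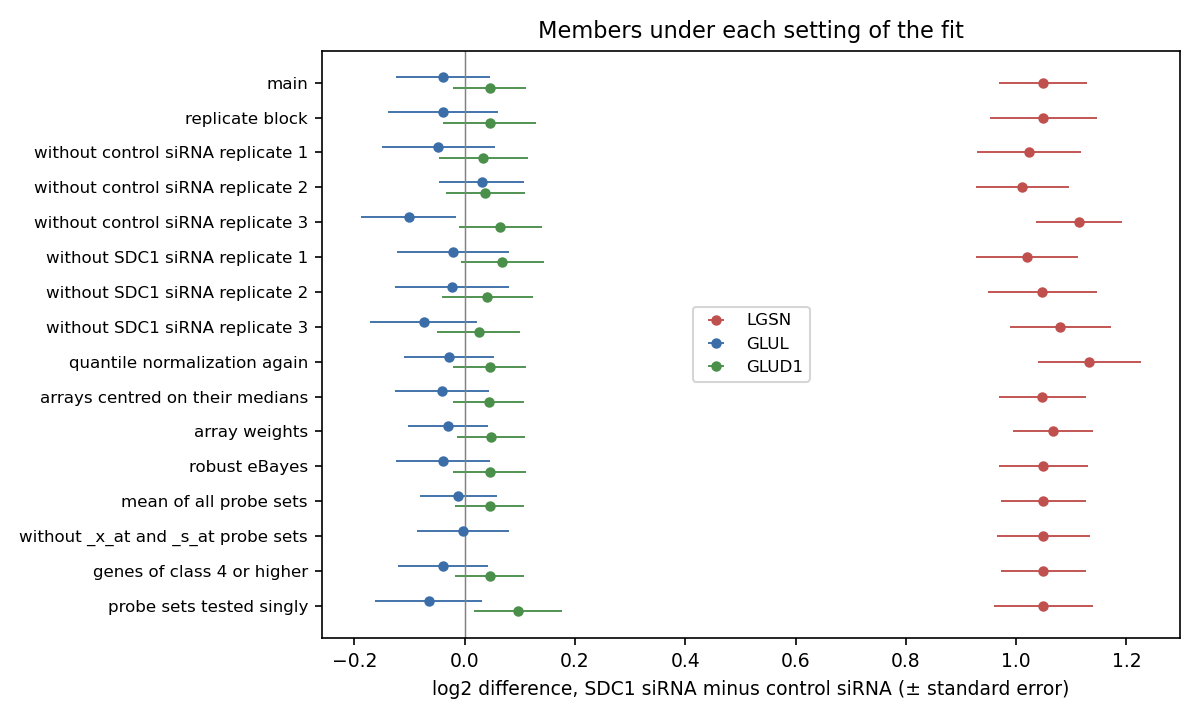
Log2 difference between SDC1 siRNA and control siRNA (horizontal axis, with standard errors) of LGSN, GLUL and GLUD1 under the fit as reported and each alternative (rows). LGSN stays between 1.01 and 1.13, GLUL between -0.10 and 0.03 and GLUD1 between 0.03 and 0.10, with no GLUD1 value once _x_at and _s_at probe sets are left out.

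The wider pathway was read from 9 lists of 71 genes, 65 of them measured. No glutaminase was analysed here, so GLUD1 alone stood for the list of glutaminases and glutamate dehydrogenases. LGSN, chosen by this contrast, was left out of the counts that follow. Of the 64 other genes 0 passed the limma fit over all genes in either direction, 5 were at an unadjusted p under 0.05 (ARG2, ASL, CTPS2, SLC6A14 and SLC7A7; 7.81%, against 10.6% of all genes), and 30 lay above 0 and 34 below. Their median difference was -0.0030, beside 0.0060 over all genes, and the largest in absolute size was 0.33. Groups did not overlap in 12 of the 64 (18.8%), beside 16.7% of all genes. The 5 with higher SDC1 siRNA arrays are 7.81% of the 64, beside 8.26% of all genes, and the 7 with lower ones 10.9%, beside 8.47%. For 61 of the 64 the 95% interval lay within 0.50 of 0, which is a 1.41-fold change. The balance of signs was not stable, with 34 above and 30 below 0 without control replicate 2 and 38 above and 26 below without SDC1 siRNA replicate 1.

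**Figure D4:**
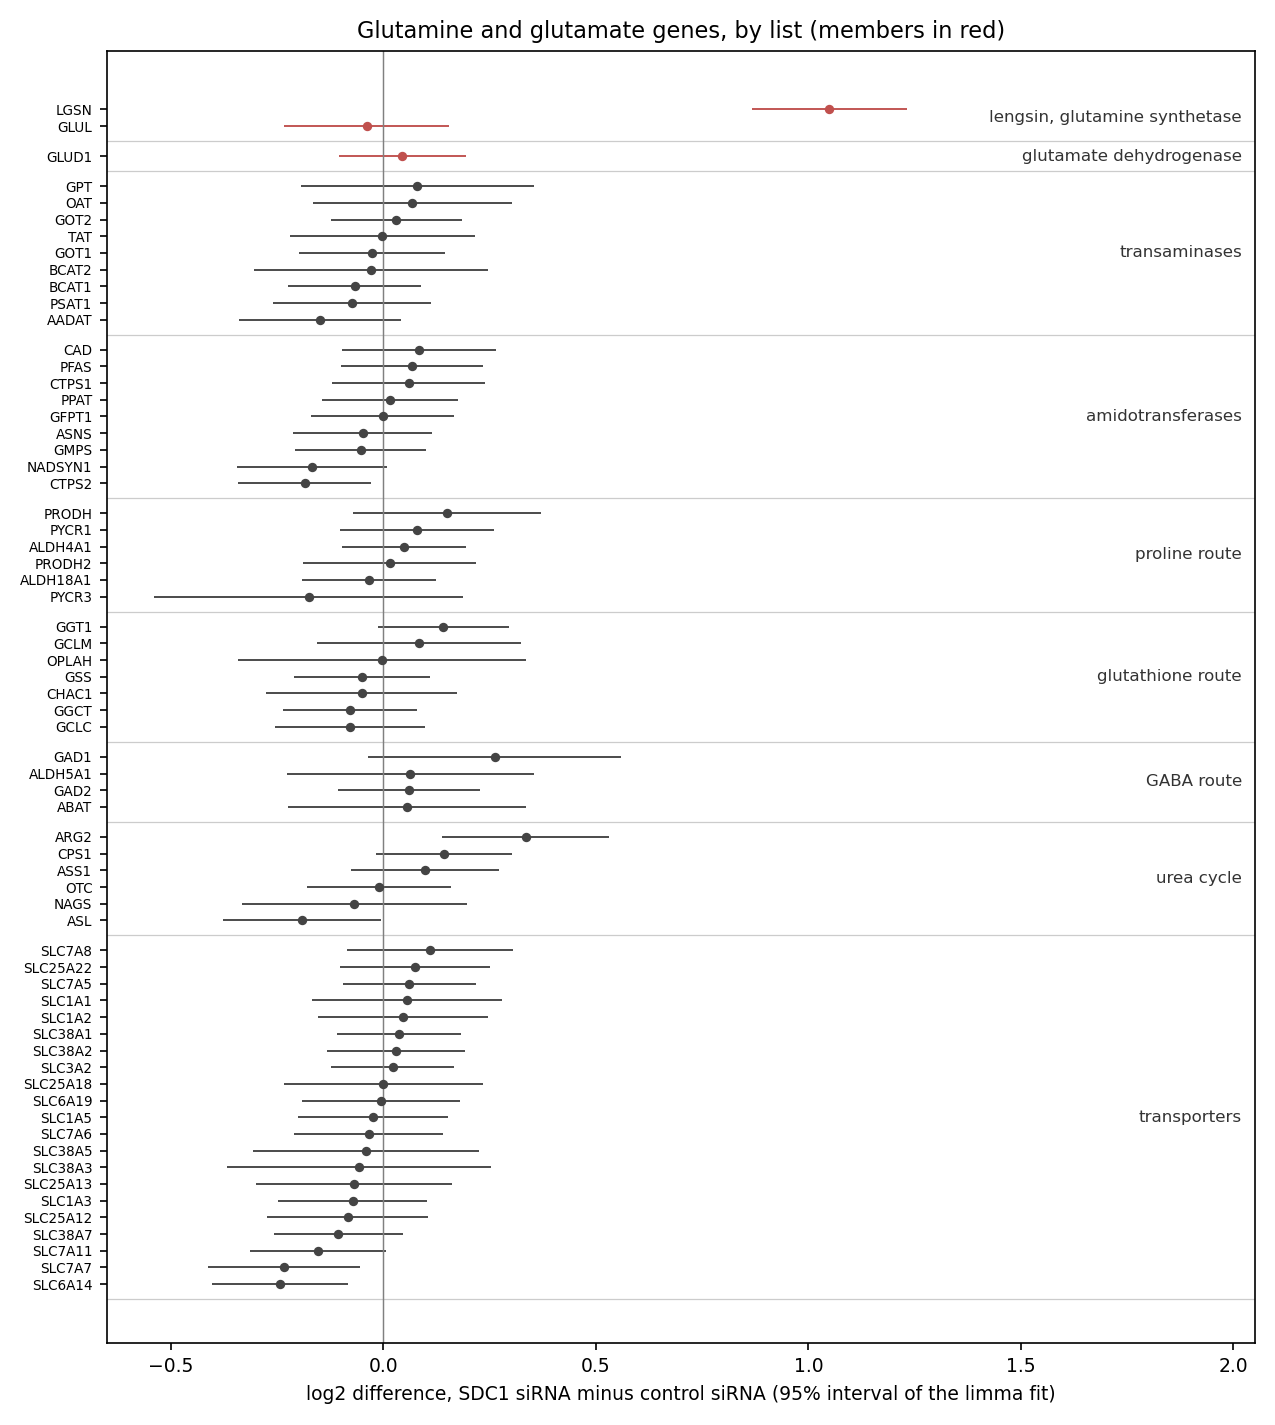
Log2 difference between SDC1 siRNA and control siRNA with its 95% interval (horizontal axis) for the 65 measured genes of glutamine and glutamate metabolism (rows), grouped by role, members in red. LGSN lies at 1.05 and the remaining 64 genes lie between -0.24 and 0.33.

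Transaminases, which move the amino group of glutamate to other carbon chains, were represented by 9 of 10 genes, with 0 past the threshold, 3 above 0, 6 below and a median of -0.03. AADAT, the aminoadipate transaminase, was at -0.15 ± 0.08 (limma adjusted p = 0.575), and at -0.09 without control replicate 1. The cytosolic branched-chain transaminase BCAT1 was at -0.07 ± 0.07, and all 4 of its probe sets were in the brightest class and between -0.09 and -0.04, with the gene at -0.10 without SDC1 siRNA replicate 3. PSAT1, of serine synthesis, was at -0.07 ± 0.08, at -0.0039 without control replicate 2 and at -0.13 without control replicate 3.

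Amidotransferases spend the amide nitrogen of glutamine. Of 10 genes 9 were measured and 0 passed, with 4 above 0, 5 below and a median of -0.0019. CTPS2, a CTP synthase, read 0.07, 0.19 and 0.06 in the control arrays and -0.07, -0.07 and -0.09 in the SDC1 siRNA arrays. All 3 SDC1 siRNA arrays were below all controls, in each of its 2 probe sets too, but the difference of -0.19 ± 0.07 had an adjusted p = 0.399 (limma). NADSYN1, the NAD synthetase, was at -0.17 ± 0.08 (limma adjusted p = 0.493). It was at 0.03 without _x_at and _s_at probe sets, where only probe sets of the dimmest class remained. CAD, which starts pyrimidine synthesis, was at 0.08 ± 0.08, at 0.03 without SDC1 siRNA replicate 3 and at 0.14 without SDC1 siRNA replicate 1.

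The routes from glutamate to proline and glutathione also held 0 genes past the threshold. Of 7 proline genes 6 were measured, with a median of 0.03. PRODH, the proline dehydrogenase, was at 0.15 ± 0.10, the reductase PYCR3 at -0.18 ± 0.16 and its relative PYCR1 at 0.08 ± 0.08. PYCR3 was the least even of these, with control arrays at 0.19, -0.24 and 0.41, and moved to -0.35 without control replicate 2 and to -0.03 without control replicate 3. PRODH was at 0.07 without control replicate 2 and at 0.09 without SDC1 siRNA replicate 2. PYCR1 was at 0.0094 without control replicate 3 and at 0.13 without control replicate 1. All 7 glutathione genes were measured, 2 above 0 and 5 below, with a median of -0.05. The gamma-glutamyltransferase GGT1 was at 0.14 ± 0.07 (limma adjusted p = 0.513) with every SDC1 siRNA array above every control. The cyclotransferase GGCT was at -0.08 ± 0.07, at -0.05 without control replicate 2 and at -0.12 without control replicate 3. GCLC, the catalytic subunit of glutamate-cysteine ligase, was at -0.08 ± 0.08, at -0.01 without control replicate 2 and at -0.12 without control replicate 1.

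In the GABA route, where glutamate is decarboxylated and the product degraded, 4 of 4 genes lay above 0 with a median of 0.06, and 0 passed. The decarboxylase GAD1 was at 0.26 ± 0.13 (limma adjusted p = 0.524). Its SDC1 siRNA arrays read -0.05, 0.46 and 0.11, so replicate 2 stood high, and the difference was 0.12 without that array. GAD2 was at 0.06 ± 0.07, the mean of 5 probe sets of the dimmest class that ran from -0.21 to 0.33. It was at 0.017 without control replicate 2, at 0.03 without SDC1 siRNA replicate 2 and at 0.09 without control replicate 1. ALDH5A1, which oxidises succinic semialdehyde, was at 0.06 ± 0.13, while its less bright probe set was at -0.29 ± 0.12. Leaving out single arrays moved ALDH5A1 between -0.03 (control replicate 1) and 0.18 (control replicate 3).

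Urea cycle genes, which share ammonia and ornithine with glutamate metabolism, included the largest difference after LGSN. ARG2, the mitochondrial arginase, read -0.20, -0.07 and -0.34 in the control arrays and 0.10, 0.07 and 0.21 in the SDC1 siRNA arrays. The groups did not overlap, and the difference was 0.33 ± 0.09, with a limma adjusted p = 0.251 that misses the threshold. The second ARG2 probe set, of a lower class, was at 0.12 ± 0.08 with separate groups. ASL, the argininosuccinate lyase, was at -0.19 ± 0.08 (adjusted p = 0.461) and the carbamoyl phosphate synthetase CPS1 at 0.14 ± 0.07, from probe sets of the dimmest class. All 6 genes of this list were measured and 0 passed, with 3 above 0, 3 below and groups that did not overlap in 3 (50%, beside 16.7% of all genes). Without SDC1 siRNA replicate 1 ASL was at -0.12.

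Carriers of glutamine and glutamate were the largest list, with 21 of 21 measured, 0 past the threshold, 9 above 0, 12 below and a median of -0.02. The amino acid importer SLC6A14 read 0.12, 0.11 and 0.06 in the control arrays and -0.21, -0.06 and -0.18 in the SDC1 siRNA arrays. That is a difference of -0.24 ± 0.07 (limma adjusted p = 0.299) from 1 probe set of the dimmest class. SLC7A7, a subunit of the exchanger that releases cationic amino acids at the basal membrane, was at -0.23 ± 0.08 (adjusted p = 0.354). SLC7A11, the cystine/glutamate exchanger, was at -0.15 ± 0.07 (adjusted p = 0.49). In all 3 carriers the SDC1 siRNA arrays lay below the controls. Groups did not overlap in 5 of the 21 carriers (23.8%, beside 16.7% of all genes), 1 higher and 4 lower (19.0%, beside 8.47%).

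Lens genes other than LGSN showed no change past the threshold. Of 29 lens genes (crystallins, beaded filament and junction proteins, and lens transcription factors) 26 were measured and 0 passed, with 12 above 0, 14 below and a median of -0.02. The differences ran from -0.23 for the crystallin CRYBA1 to 0.21 for CRYBA2. CRYAB, a small heat shock crystallin, was at -0.19 ± 0.08 (limma adjusted p = 0.429), and was the 1 lens gene at an unadjusted p under 0.05 (3.85% of 26, beside 10.6% of all genes) and the 1 whose groups did not overlap (3.85%, beside 16.7%). The filament protein BFSP2 was at 0.20 ± 0.10, CRYBA2 had a standard error of 0.12, and the heat shock factor HSF4 was at 0.15 ± 0.08. CRYBA2 was at 0.08 without SDC1 siRNA replicate 2, and HSF4 at 0.22 without SDC1 siRNA replicate 3.

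The profile of LGSN over the 6 arrays was set against those of 15057 genes of brightness class 4 or higher by Pearson's r. The points share the split into 2 groups, which any separated gene follows, so r is a description with no test, and 248 genes (1.65%) had r above 0.9 while 440 (2.92%) had r below -0.9. The 5 closest were RNPS1, an exon junction protein (r = 0.994), A4GNT, a glycosyltransferase of mucins (0.992), LYPD3, a GPI-anchored surface protein (0.992), KRT8P12, a pseudogene of keratin 8 (0.990), and SPRING1, a regulator of SREBP processing (0.988). Their differences were 0.21, 0.23, 0.23, 0.27 and 0.33, far smaller than that of LGSN. KRT8P12 may share signal with KRT8, whose own difference was 0.09. The 3 most opposite were PLAC8 (r = -0.998), RBBP9 (-0.997) and the microfibril protein MFAP5 (-0.995), with differences of -0.40, -0.18 and -0.48. GLUL had r = -0.34 with LGSN and GLUD1 r = 0.59.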

How the data were processed

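Biotin-labelled cRNA from total RNA of 6 Caco-2 samples was read on Affymetrix arrays (per the labels' protocols). The authors deposited log2 values from RMA, as the submitters' processing notes name it; its version is not given in the sources used here. Of 54675 deposited probe sets, all 54675 had a median of 0 (tolerance 1e-06), a centring no source states. Steps in the stored numbers (tolerance 1e-09) gave brightness classes: 9444 probe sets lay at 8 to 16, a further 24721 at 4 to 8, and 20510 lay below 4. Probe sets crossing a bound fall into the lower class, and chance places some too high. Symbols came from the platform annotation, updated through RefSeq gene identifiers.

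Groups were compared with limma 3.58.1 (lmFit, eBayes) in R 4.3.3, group as the only term, p-values adjusted by Benjamini-Hochberg over 19775 genes, threshold 0.05. The fit was also tried on simulated arrays of 19775 genes with independent normal noise. In these, 50 genes each were planted at changes of 0.5, 1, 1.5 and 2 (log2). The fit called 78% of those of 0.5 and 98% of those of 1. So many planted changes ease the adjusted threshold, so these shares do not give the power in the real data, where 5 genes passed. There LUM at -0.62 had a limma adjusted p = 0.273. Members, lists and the brightest-class rule were chosen with earlier results of these data known. Named genes were the members, SDC1, the 3 next rises, the 3 lowest p per pathway list, 4 lens genes, and those most and least like LGSN; marker genes and CRYBA1 were named beside their lists' counts. The alternatives used the replicate number as a block, left out each array, or tried quantile or median normalization, array weights, a robust fit, other probe set rules and a brightness filter. The number of arrays limits precision. The sources used here give no scan date. At most 52 gene values were exactly equal (no tolerance) in any pair of arrays.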

Additional observations from a re-analysis of the deposited data

How the results depend on the processing

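The LGSN difference stayed between 1.01 and 1.13 under 15 alternatives, and LGSN had the largest rise in each. As this rise chose LGSN, its rank is a description only. The block and the robust fit changed only its standard error. The probe set rules and the brightness filter left its 1 probe set as it was. By absolute size LGSN ranked 2 without control replicate 1 and without SDC1 siRNA replicate 1. Of the pathway genes other than LGSN and of the lens genes 0 passed the limma fit under any alternative, with 3 to 12 and 0 to 2 at an unadjusted p under 0.05. Each alternative tested 64 and 26 of them, except 50 and 22 without _x_at and _s_at probe sets and 59 and 20 at class 4 or higher. The 12 arose with probe sets tested singly, where each gene was given its lowest-p probe set, which raises the count. The other alternatives gave 3 to 8 pathway genes. Alternatives that kept all 19775 genes had 1406 to 2735 genes at an unadjusted p under 0.05. GLUL was between -0.10 and 0.031 with 1 array left out, above 0 (0.031) only without control replicate 2, and GLUD1 between 0.025 and 0.069.

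The count of 5 genes past the threshold became 39 with array weights, 11 among genes of class 4 or higher, 3 with every probe set averaged, and 0 at an adjusted p of 0.01 (2100 genes at an unadjusted p under 0.05). It was 0 with probe sets tested singly (4547 at an unadjusted p under 0.05) and between 0 and 1 with 1 array left out (1406 to 2443). SDC1 was past the threshold in none of these fits with 1 array left out, with differences from -0.92 to -0.78. It also missed the threshold at -0.90 after quantile normalization again (adjusted p = 0.083) and at -0.85 with probe sets tested singly (adjusted p = 0.121). The cause was not tested.

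With the replicate number as a block, 0 genes passed (1666 at an unadjusted p under 0.05) and SDC1 was at -0.84 (adjusted p = 0.0929). The labels do not say whether the numbers pair the samples. Deviations from the group means correlated at -0.01, -0.26 and -0.11 between same-numbered arrays. The highest correlation was 0.21, for control replicate 2 with SDC1 siRNA replicate 3. These deviations sum to 0 within each group, so their correlations cannot decide the pairing.

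Some named genes changed sign, all short of the threshold. Values with probe sets singly are those of each gene's lowest-p probe set. NADSYN1 turned to 0.027 without _x_at and _s_at probe sets and to 0.21 with probe sets singly. Both values come from probe sets of the dimmest class, and its 2 brighter probe sets were at -0.20 and -0.14. GCLC turned to 0.0045 with every probe set averaged and to 0.17 singly. ALDH5A1 turned to -0.11 with every probe set averaged, to -0.29 without _x_at and _s_at probe sets and to -0.29 singly, and ran from -0.030 to 0.18 with 1 array left out.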
